A study of Mus musculus with 8 samples.

Results

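Mitochondrial ribosomal protein genes were followed in the myocardium of mice after myocardial infarction (MI) or a sham operation. Members were all genes of the deposited gene table named Mrpl or Mrps with a number and, where present, a letter from a to c, without pseudogenes, which gave 78 of 33249 genes. All 78 passed the filter on low values, an average FPKM of 0.5 or more, as did 14028 genes in the whole table. Poly(A) RNA of 8 libraries was sequenced, 2 for each combination of genotype and operation. The libraries labelled fl/fl come from mice with both Piezo1 alleles floxed and no Cre transgene, which the labels call WT. Those labelled CKO come from littermates with floxed Piezo1 alleles that also carried a tamoxifen-inducible Cre recombinase driven by the Myh6 promoter, which is active in cardiomyocytes, so that other cells of the heart should keep Piezo1. Tamoxifen was given at 4 weeks of age at 75 mg/kg/day for 5 days, and whether the fl/fl mice received it is not stated in the sources used here. MI, by lasting ligation of the left anterior descending artery, or sham surgery was performed at 8 weeks of age, and MI hearts were taken at day 42 (the labels give no day for sham hearts). Sex was not given, and nothing says whether the 2 libraries of a group come from separate mice, so p-values measure the spread between these libraries.

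Mitochondria carry their own ribosome, built from ribosomal RNAs encoded in mitochondrial DNA and from proteins encoded in the nucleus, translated in the cytosol and imported. This ribosome makes only the few proteins of mitochondrial DNA, all of them subunits of the respiratory chain and ATP synthase, on which the beating heart depends for ATP. Its large subunit (Mrpl genes) forms peptide bonds and its small subunit (Mrps genes) reads the mRNA. Some of the proteins have counterparts in bacterial ribosomes and others occur only in mitochondria. Gene names do not always give the subunit, since Mrps30 and Mrps18a encode proteins of the large subunit and Mrps36 encodes a component of the oxoglutarate dehydrogenase complex. By these roles 51 members belonged to the large subunit, 26 to the small subunit and 1 to neither.

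The libraries held 73821747 to 88117573 deposited counts, and the lowest count of any member in any library was 220. Levels are given as CPM, the count relative to a library size that TMM corrects for a few genes taking many of the counts. Genes encoded in mitochondrial DNA took 43.1% to 46.4% of counts in sham and 19.9% to 24.2% in MI libraries. Esr1, part of which is carried by the Cre transgene, stood at 331 CPM in library 2 of the group labelled fl/fl-MI, at 707 and 402 in those labelled CKO-MI and at 5.52 to 8.36 in the other 5, against the labels of fl/fl-MI 2 and of both CKO-Sham libraries. Piezo1 was not lower in the libraries labelled CKO than in those labelled fl/fl (log2 difference 0.03 ± 0.16 (SE) after MI and 0.10 ± 0.16 after sham; unadjusted p = 0.854 and 0.571 with edgeR's quasi-likelihood test, 2 libraries against 2). Directions by genotype below therefore refer to the libraries as labelled.

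Promoters are shown for 3 members, the 2 with the deepest fall after MI for which RefSeq held an entry and 1 of the 2 that rose, because nuclear genes for mitochondrial proteins are known to share binding motifs of NRF1, GABP (an ETS factor), YY1 and the estrogen-related receptors (ERR). Each is the 250 bases before the RefSeq start site on GRCm38.p6, read 5′ to 3′ on the strand of the gene, with matches to these 4 motifs in capitals. Mrpl14 lies on the plus strand (chr17:45686099-45686348), Mrps21 on the minus strand (chr3:95871515-95871764) and Mrps22 on the minus strand (chr9:98601680-98601929).
Mrpl14: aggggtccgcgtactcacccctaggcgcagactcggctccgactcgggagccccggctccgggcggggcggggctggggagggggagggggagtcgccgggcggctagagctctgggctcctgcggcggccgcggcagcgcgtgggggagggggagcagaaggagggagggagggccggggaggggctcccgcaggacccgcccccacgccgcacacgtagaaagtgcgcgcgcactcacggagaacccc
Mrps21: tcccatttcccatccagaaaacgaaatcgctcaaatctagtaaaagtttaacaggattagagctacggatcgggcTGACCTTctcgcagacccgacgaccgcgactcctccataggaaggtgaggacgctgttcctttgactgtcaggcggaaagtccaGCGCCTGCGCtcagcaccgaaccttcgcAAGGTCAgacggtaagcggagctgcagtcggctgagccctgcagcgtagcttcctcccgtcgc
Mrps22: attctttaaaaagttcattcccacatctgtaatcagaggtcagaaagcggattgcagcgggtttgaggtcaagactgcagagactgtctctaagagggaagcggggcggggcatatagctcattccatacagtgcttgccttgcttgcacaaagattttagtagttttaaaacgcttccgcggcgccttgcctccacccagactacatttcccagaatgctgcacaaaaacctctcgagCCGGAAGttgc
The stretch of Mrpl14 held no match to these 4 motifs, although an NRF1 match lay just after the start. That of Mrps21 held an NRF1 match that begins 91 bases before the start and ERR matches that begin 175 and 63 bases before it. That of Mrps22 held a GABP match that begins 11 bases before the start.

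Entries were found for 69 of the 78 members. In the window of 300 bases from 250 before to 50 after the start, on either strand, the GABP motif CCGGAAG occurred in 26 of 69 members (37.7%), against 9.93% of all 27025 genes with an entry and 19.4% of the 10033 tested genes with one. The YY1 motif AAGATGGC occurred in 12 members (17.4%), against 3.19% of all and 5.08% of tested genes. The NRF1 motif (GCGCA, any base, then GCGC) occurred in 13 members (18.8%), against 5.19% of all and 11.1% of tested genes. These 3 motifs were thus more frequent in the members' promoters than in either background, as a description. The ERR motif AAGGTCA was rare, in 4 members (5.8%), against 5.38% of all and 3.97% of tested genes. The GC box GGGCGG, also sought, occurred in 34 members (49.3%), against 38.2% of all and 67.4% of tested genes. The TATA motif TATAAA occurred in 5 members (7.25%), against 15.7% of all and 9.34% of tested genes. By direction after MI, the GABP motif was in 12 of the 31 members called lower that had an entry (38.7%) and in 14 of the 38 others (36.8%), so that its share hardly differed between them. The YY1 motif was in 4 of 31 (12.9%) and 8 of 38 (21.1%), and the NRF1 motif in 6 of 31 (19.4%) and 7 of 38 (18.4%). All 4 genes with an ERR match (Mrpl12, Mrpl36, Mrps15 and Mrps21, named after these matches were seen) were among those called lower. A match gives the letters in this window and is no evidence of binding.

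To ask how MI moved these genes, the 4 MI libraries were compared with the 4 sham libraries, each side holding 2 libraries labelled fl/fl and 2 labelled CKO. Esr1 was high, as given above, in 3 of the 4 MI and 0 of the 4 sham libraries, and the part of the transgene in this comparison was not tested. On TMM-scaled counts most members were lower after MI. Of 78 members, 35 were called lower and 2 higher with edgeR's quasi-likelihood test (Benjamini-Hochberg adjusted p under 0.05 over all tested genes), where 18.3% of all tested genes were called lower and 22.0% higher. In 37 members all 4 MI libraries lay below all 4 sham libraries, a pattern met in 19.5% of tested genes. The reverse pattern was met in 1 member, Mrps22, and in 20.9% of tested genes. The median log2 fold change of the members was −0.37, with quartiles at −0.65 and −0.10, and that of all tested genes was 0.03. The direction against 0 depends on how libraries are scaled, as set out next.

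On the FPKM scale of the authors (limma on log2(FPKM + 1)) the median of all tested genes was 0.41 and that of the members 0.15, and the calls turned around, with 25 members called higher and 6 lower where 50.1% and 5.97% of tested genes were. As a share of all counts the members took 0.160% to 0.199% in sham and 0.191% to 0.208% in MI libraries, and as a share of nuclear counts 0.299% to 0.349% in sham and 0.238% to 0.275% in MI libraries. What held on both scales was the place of the members below other genes. The members' median lay 0.41 log2 units below that of all tested genes on TMM-scaled counts and 0.26 below it on log2(FPKM + 1), with 66 and 61 of 78 members under it. In bulk tissue, fewer cells of a type and less RNA per cell cannot be told apart.

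**Figure D1:**
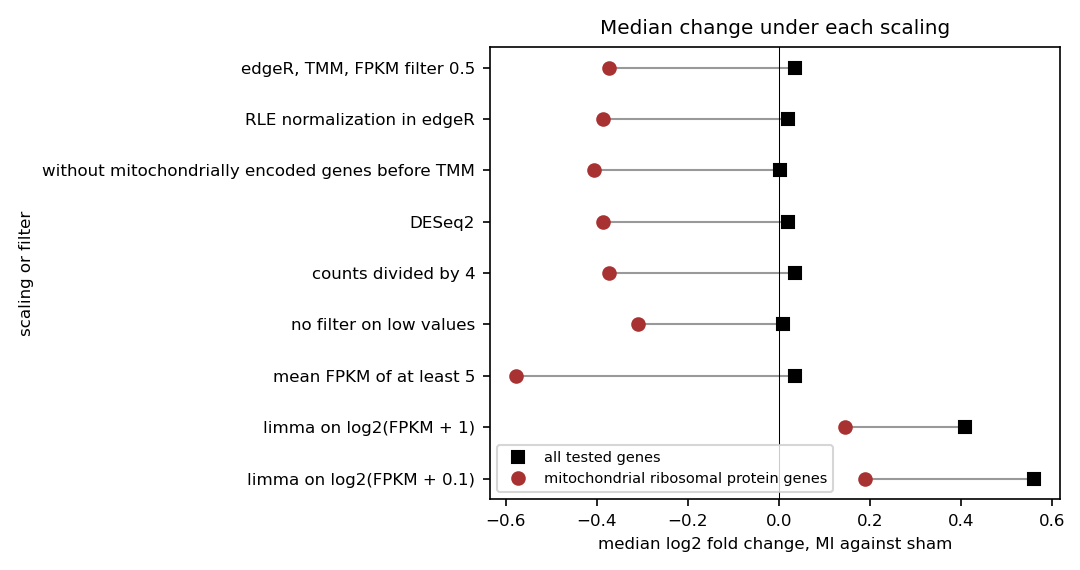
Median log2 fold change of MI against sham libraries (horizontal axis) for the members (circles) and for all tested genes (squares) under 9 scalings, tests or filters (rows), each pair joined by a line. The members lie left of all tested genes in every row, and left of 0 in every row except the 2 on FPKM, where their medians were 0.15 and 0.19.

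Mrpl14 (ENSMUSG00000023939, chromosome 17 of GRCm38, 45686322 to 45698495), a large-subunit protein with a bacterial counterpart, fell most. It stood at 18.7, 27.1, 29.1 and 26.7 CPM in the sham libraries (fl/fl-Sham 1 and 2, then CKO-Sham 1 and 2) and at 7.72, 8.41, 8.15 and 8.16 CPM in the MI libraries (fl/fl-MI 1 and 2, then CKO-MI 1 and 2). The MI libraries were nearly equal to each other, and each was below every sham library. The level was 3.11-fold lower (log2 fold change −1.64 ± 0.15 (SE); edgeR adjusted p = 0.000689), and on log2(FPKM + 1) the change was −0.99 (limma, adjusted p = 0.00172). Of its exonic bases 11.2% are shared with Tmem63b on the opposite strand, and whether strand was used in counting is not stated.

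Mrps21 (ENSMUSG00000054312, chromosome 3, 95862634 to 95871519), a small-subunit protein with a bacterial counterpart and a mean transcript length of 479 nucleotides, had 18.9, 27.5, 31.0 and 24.3 CPM in sham and 8.79, 12.6, 9.97 and 8.79 CPM in MI libraries. These ranges did not overlap, and the level was 2.53-fold lower (log2 fold change −1.34 ± 0.19 (SE); edgeR adjusted p = 0.00236). Mrpl54 (ENSMUSG00000034932, chromosome 10, 81264713 to 81266934), found only in mitochondrial ribosomes, had 13.2, 18.8, 18.6 and 18.3 CPM in sham and 9.43, 6.89, 8.25 and 6.96 CPM in MI libraries. It too was lower in each MI library than in any sham library, by 2.18-fold (log2 fold change −1.13 ± 0.17; edgeR adjusted p = 0.00341).

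Mrps24 (ENSMUSG00000020477, chromosome 11, 5703983 to 5707690), a small-subunit protein, had 22.9, 27.8, 26.5 and 21.3 CPM in sham and 11.3, 13.5, 12.5 and 10.8 CPM in MI libraries, 2.05-fold lower (log2 fold change −1.03 ± 0.14 (SE); edgeR adjusted p = 0.002). Mrpl28 (ENSMUSG00000024181, chromosome 17, 26123500 to 26126613), a large-subunit protein, had 58.5, 61.7, 54.2 and 44.0 CPM in sham and 22.5, 28.5, 32.5 and 25.5 CPM in MI libraries (log2 fold change −0.999 ± 0.14; edgeR adjusted p = 0.00212). Neither had overlapping groups. These 5 genes were also called lower on log2(FPKM + 1), with changes from −0.99 for Mrpl14 to −0.42 for Mrpl28. Mrps24 shares 15.4% of its exonic bases with Urgcp on the same strand, so that reads of these genes may have been split between them.

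The other 30 members called lower changed by −0.95 (Mrps35) to −0.36 (Mrps18b) on the log2 scale. Among these 35 genes Mrpl33 alone had an MI library that was not below all sham libraries. Of 78 members, 65 had a negative log2 fold change.

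Mrps22 (ENSMUSG00000032459, chromosome 9, 98588730 to 98601660) and Mrps31 (ENSMUSG00000031533, chromosome 8, 22411361 to 22429665), small-subunit proteins without bacterial counterparts, were the 2 members called higher on TMM-scaled counts. Mrps22 had 9.67, 7.25, 8.42 and 7.60 CPM in sham and 11.0, 12.2, 15.1 and 10.5 CPM in MI libraries, 1.48-fold higher (log2 fold change 0.56 ± 0.17 (SE); edgeR adjusted p = 0.0372). Mrps31 had 17.3, 16.0, 12.5 and 12.8 CPM in sham and 15.3, 19.7, 22.8 and 19.6 CPM in MI libraries, 1.33-fold higher (log2 fold change 0.41 ± 0.13; edgeR adjusted p = 0.038). Its groups overlapped in fl/fl-MI 1. Both calls were narrow on counts: without the 3 libraries whose Esr1 went against their labels the changes were 0.49 (edgeR adjusted p = 0.157) for Mrps22 and 0.11 (adjusted p = 0.55) for Mrps31, and with CKO-MI 1 left out they were 0.39 (adjusted p = 0.131) and 0.32 (adjusted p = 0.14). On log2(FPKM + 1) they were 0.79 (limma, adjusted p = 0.00109) and 0.80 (adjusted p = 0.000553).

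By smallest p among the other members with a positive change came Mrpl19 at a log2 fold change of 0.26 ± 0.11 (SE; edgeR adjusted p = 0.0975), Mrps30 at 0.26 ± 0.13 (adjusted p = 0.154) and Mrpl10 at 0.13 ± 0.10 (adjusted p = 0.314), none of which passed on counts although all 3 did on log2(FPKM + 1). Mrpl19 shares 36.0% of its exonic bases with Gcfc2 on the opposite strand. Mrps6 (chosen after its values were seen) had 31.7 CPM in fl/fl-MI 2 and 7.52 to 12.4 CPM in the other 7 libraries, and its change of 0.44 ± 0.40 did not pass (edgeR adjusted p = 0.415). Its exons overlap those of Slc5a3 on the same strand.

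**Figure D2:**
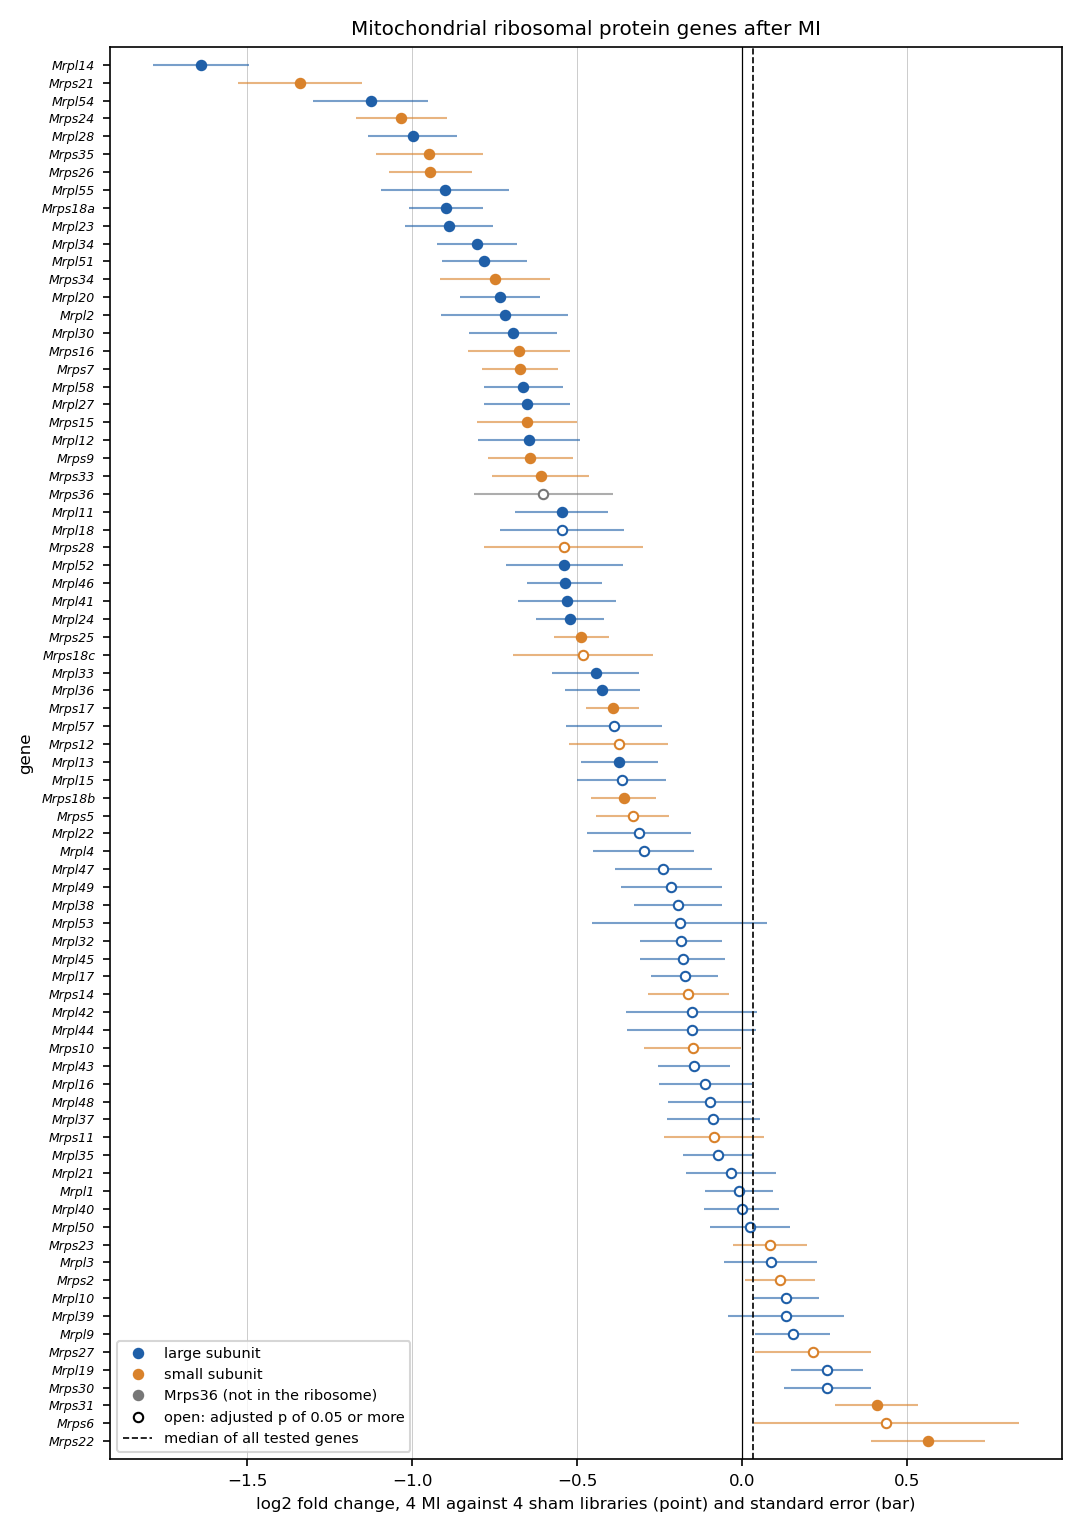
Log2 fold change of MI against sham on TMM-scaled counts (horizontal axis; point) with its standard error (bar) for each of the 78 genes, ordered by value and coloured by subunit. Filled points passed an adjusted p of 0.05, 35 left of 0 and 2 right of it; the dashed line is the median of all tested genes at 0.03, and on the FPKM scale the median of these genes lies at 0.15 and that of all tested genes at 0.41.

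By subunit, 22 of 51 large-subunit and 13 of 26 small-subunit genes were called lower, with medians of −0.31 and −0.44. By origin, 22 of the 46 ribosomal members with a bacterial counterpart and 13 of the 31 found only in mitochondria were called lower, with medians of −0.41 and −0.20 over both genotypes. The latter group includes Mrps18a and Mrps18b, both called lower, although their family descends from a bacterial protein. Within fl/fl the medians by origin were −0.41 and −0.44, and within CKO −0.36 and −0.08, so the gap was not met in fl/fl. Both risers belonged to the 10 small-subunit genes found only in mitochondria, of which 6 were called lower. Differences between these groups were not tested.

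Members with a special role moved as follows on TMM-scaled counts. Mrpl12, which also binds the mitochondrial RNA polymerase, had 77.2, 84.3, 87.3 and 67.2 CPM in sham and 45.8, 58.1, 56.7 and 41.5 CPM in MI libraries and was called lower (log2 fold change −0.65 ± 0.15 (SE); edgeR adjusted p = 0.0158). Mrpl58, a peptidyl-tRNA hydrolase built into the large subunit, was called lower at −0.66 ± 0.12 (adjusted p = 0.00589). On log2(FPKM + 1) neither was called, at −0.09 for each. Mrps36, the member outside the ribosome, had −0.60 ± 0.21, short of the threshold (edgeR adjusted p = 0.0584).

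The Mrps18 paralogs descend from 1 bacterial protein, and their products occupy different places in the ribosome. Mrps18a, in the large subunit, had 32.4, 36.8, 30.1 and 32.6 CPM in sham and 15.8, 15.5, 22.4 and 17.5 CPM in MI libraries, with no overlap (log2 fold change −0.90 ± 0.11 (SE); edgeR adjusted p = 0.00163). Mrps18b was called lower by less (−0.36 ± 0.10; adjusted p = 0.0257) and had 0.18 on log2(FPKM + 1), where it did not pass. Mrps18c had −0.48 ± 0.21 (adjusted p = 0.111), with 11.2 CPM in CKO-Sham 1 and 5.23 to 7.41 CPM elsewhere. Whether the paralogs differ in their change was not tested.

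Levels per length, as gene FPKM over the 8 libraries, spanned from 1.60 to 43.2 with a median of 8.09, a 27-fold range for proteins that enter the ribosome mostly in single copies. Mrps23 was highest at a mean FPKM of 43.2, followed by Mrpl12 at 39.8, Mrpl18 at 38.0, Mrpl34 at 33.8 and Mrpl28 at 27.3. Mrpl57 at 2.36, Mrpl32 at 2.31 and Mrps10 at 1.60 were lowest. The deposited gene FPKM is not the sum over transcripts, and by summed transcript FPKM the range was 2.90 to 94.9 (Spearman's rho between the measures 0.777 across 78 genes, as a description). The highest member, Mrps23, had 68.2, 72.5, 65.2 and 58.7 CPM in sham and 59.3, 73.5, 78.8 and 69.0 CPM in MI libraries and did not pass (log2 fold change 0.09 ± 0.11 (SE); edgeR adjusted p = 0.572). Mrpl34 was called lower (−0.80 ± 0.12; adjusted p = 0.00309), and Mrpl18 was just short of it (−0.55 ± 0.19; adjusted p = 0.0548). The lowest 3 by gene FPKM had −0.39 (Mrpl57; adjusted p = 0.0704), −0.18 (Mrpl32; adjusted p = 0.27) and −0.15 (Mrps10; adjusted p = 0.449).

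The 4 MI libraries did not move equally. The median over the 78 members of the log2 CPM minus the sham mean was −0.54 in fl/fl-MI 1, −0.30 in fl/fl-MI 2, −0.26 in CKO-MI 1 and −0.42 in CKO-MI 2, and between −0.15 and 0.09 in the sham libraries. Markers of other cells differed among these libraries too. The summed CPM of 8 fibroblast markers was 6672, 2458, 3412 and 5636 in these MI libraries and 1488 to 1659 in sham, and that of 10 cardiomyocyte markers was 24520, 44480, 44090 and 28800, against 37460 to 42990 in sham. The MI libraries with the lower cardiomyocyte and higher fibroblast sums, fl/fl-MI 1 and CKO-MI 2, were those with the lower members. In the MI comparison all 8 fibroblast markers were called higher, 5 of 6 endothelial markers lower, 3 of 7 macrophage markers higher, 5 of 5 erythroid markers higher, 2 of 5 smooth muscle and pericyte markers lower, and of 10 cardiomyocyte markers 3 higher and 2 lower. Summed levels ran from 1432 to 1714 CPM in sham and 530.6 to 923.2 in MI for endothelial, 453.9 to 505.2 and 439.0 to 1130.0 for macrophage, 1285.0 to 1399.0 and 486.2 to 671.7 for smooth muscle and pericyte, and 79.7 to 551.0 and 272.1 to 752.9 for erythroid markers. The 5 atrial markers summed to 19860 CPM in fl/fl-MI 2, against 2547 to 4450 in the other MI and 135.0 to 593.7 in sham libraries, with Nppa called higher. Nppa made up nearly all of the sum in the other MI libraries, at 4400 CPM in fl/fl-MI 1, 4419 in CKO-MI 1 and 2520 in CKO-MI 2. Bmp10, Myl4, Myl7 and Sln were high in fl/fl-MI 2 alone. Bmp10, for example, had 3834 CPM there and 10.3 to 18.8 CPM in the other libraries. Markers of lymphocytes (0.42 to 5.73 CPM over all libraries; 1 of 6 tested) and neutrophils (5.06 to 11.2 CPM; 3 of 4 tested) were near 0, with none called. The part of cell makeup in the members' levels was not tested.

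**Figure D3:**
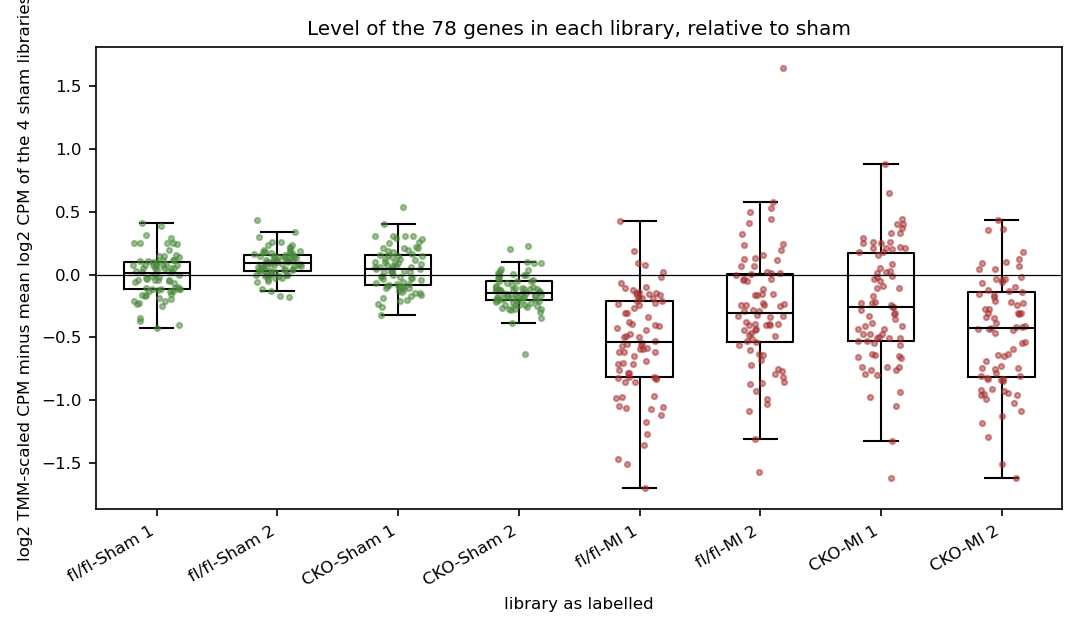
Log2 TMM-scaled CPM of each of the 78 genes minus its mean over the 4 sham libraries (vertical axis) in each library as labelled (horizontal axis); points are genes, boxes give quartiles with the median as a line, and whiskers reach to the last gene within 1.5 box heights. Medians of the MI libraries lie between −0.54 and −0.26 and those of the sham libraries between −0.15 and 0.09; the high point in fl/fl-MI 2 is Mrps6, and on the FPKM scale the median MI change was 0.15.

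The question whether MI acted alike on these genes in the 2 genotypes was addressed by comparing MI with sham within each. In fl/fl, 19 members were called lower and 0 higher with edgeR's quasi-likelihood test, where 8.45% and 10.1% of tested genes were. At an unadjusted p under 0.05 there were 35 lower and 0 higher, against 15.9% and 20.5% of tested genes. In CKO, 19 members were called lower and 2 higher (Mrps31 and Mrps2), where 11.9% and 12.8% of tested genes were. The median log2 fold changes were −0.41 in fl/fl and −0.30 in CKO on TMM-scaled counts, and 0.13 and 0.21 on log2(FPKM + 1). Leaving out 1 library at a time gave medians on counts of −0.54 to −0.37 in fl/fl and of −0.39 to −0.20 in CKO, the last without CKO-Sham 1. Of the called genes, 13 were lower in both genotypes, 6 in fl/fl alone and 6 in CKO alone, where of all 14028 tested genes 874 were called lower in both, 312 in fl/fl alone and 793 in CKO alone. Across the 78 genes the fold changes of the genotypes, which share no library, had a Pearson's r of 0.702, against 0.668 across all tested genes, and the sign was shared by 61 members (78.2%; 78.3% of all tested genes). The likeness of the genotypes, given as a description, was close to that over all tested genes. Mrpl14 fell in both (−1.50 with edgeR adjusted p = 0.00704 in fl/fl, −1.77 with adjusted p = 0.00457 in CKO), as did Mrps21 (−1.12 and −1.56), Mrpl54 (−0.97 and −1.28), Mrps24 (−1.03 and −1.04) and Mrpl28 (−1.24 and −0.76). With 2 libraries a side these calls were sensitive to single libraries, and leaving 1 out leaves 1 library in its group. Without fl/fl-Sham 2 in fl/fl, and without CKO-Sham 1 in CKO, fewer members and fewer of all tested genes were called lower. The medians of the members there were −0.39 and −0.20, beside 0.06 and 0.03 for all tested genes.

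**Figure D4:**
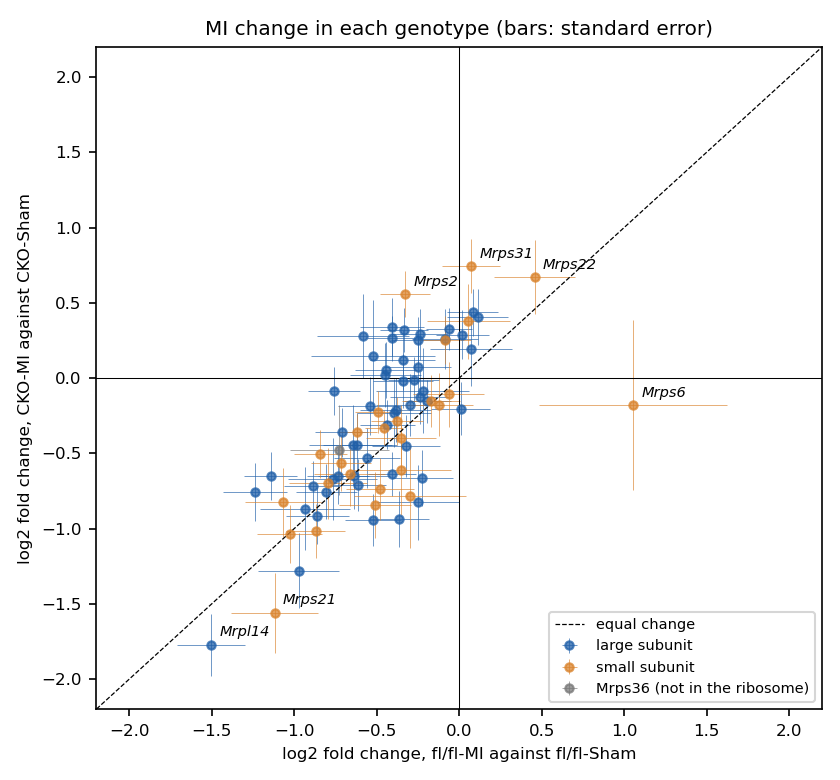
Log2 fold change of MI against sham on TMM-scaled counts in fl/fl (horizontal axis) and in CKO (vertical axis) for the 78 genes, coloured by subunit, with standard errors as bars; the dashed line marks equal change. Of 78 genes 54 lie at the lower left (both negative), and Mrps6 lies far to the right, from the library fl/fl-MI 2; on the FPKM scale the medians were 0.13 and 0.21.

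Interaction of genotype and MI called 0 of 78 members with edgeR's quasi-likelihood test and 0% of tested genes in either direction. At an unadjusted p under 0.05 it gave 6 members, all with a higher MI change in CKO, where 8.49% of tested genes passed in either direction. DESeq2 and limma on log2(FPKM + 1) also called 0. The smallest p was that of Mrps2, a small-subunit protein with a bacterial counterpart. Its CPM was 21.2 and 20.4 for fl/fl-Sham, 13.8 and 15.0 for CKO-Sham, 15.9 and 17.2 for fl/fl-MI, and 22.9 and 19.6 for CKO-MI. Sham levels were thus lower in CKO and MI levels higher (interaction 0.89 ± 0.21 (SE), unadjusted p = 0.00413, edgeR adjusted p = 0.563). Mrpl1 (0.65 ± 0.21, adjusted p = 0.574) and Mrpl35 (0.67 ± 0.21, adjusted p = 0.574) followed, and neither passed.

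Genotype itself called 0 of 78 members in CKO-MI against fl/fl-MI, as it did 0% of tested genes. At an unadjusted p under 0.05 there were 2 members higher and 1 lower, where 8.31% of tested genes passed in either direction. The smallest p values were those of Mrpl35, a large-subunit protein, at a log2 difference of 0.50 ± 0.15 (SE; edgeR adjusted p = 0.549), Mrpl27 at −0.44 ± 0.18 (adjusted p = 0.592) and Mrps2 at 0.36 ± 0.15 (adjusted p = 0.592). The CPM of Mrpl35 was 12.7 and 14.0 for fl/fl-MI and 20.0 and 17.8 for CKO-MI, without overlap. In CKO-Sham against fl/fl-Sham 0 of 78 were called, where 0% of tested genes were called higher and 0.00713% lower, and 5 members, all lower, had an unadjusted p under 0.05 (3.89% of tested genes in either direction). Mrps2 had −0.53 ± 0.15, Mrpl21 −0.59 ± 0.19 and Mrpl40 −0.44 ± 0.16, each with an edgeR adjusted p of 1. DESeq2 and limma on log2(FPKM + 1) called 0 in both comparisons as well.

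Members with short or GC-rich transcripts tended to have the lower fold changes. The mean transcript length of the members, weighted by transcript FPKM, had a median of 1301 nucleotides, against 2619 over all tested genes, and the GC content a median of 51.1%, against 50.3%. Across the 78 genes Spearman's rho of the log2 fold change was 0.431 with length and −0.453 with GC content, and across all tested genes 0.252 and −0.093, as descriptions of genes that share the same 8 libraries. Of the 12 members up to 750 nucleotides 7 were called lower (58.3%), as were 300 of the 1199 tested genes of that length. Of the 10 members between 2000 and 3000 nucleotides 0 were called lower, as were 482 of 3005 tested genes. Of the 10 members over 3000 nucleotides 3 were called lower (30.0%), against 15.7% of tested genes. Set against the median of tested genes in the same of 6 length classes, the median member was 0.241 log2 units lower and 58 of 78 lay below it. Against classes of GC content it was 0.447 lower, with 67 of 78 below. The part of length and GC content in the change of these genes was not tested.

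**Figure D5:**
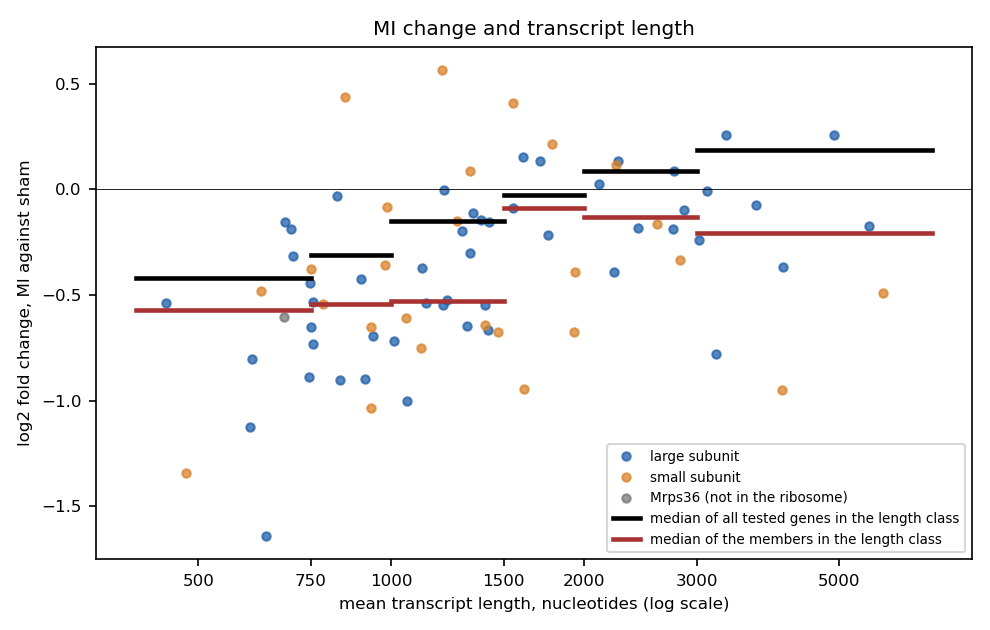
Log2 fold change of MI against sham on TMM-scaled counts (vertical axis) and mean transcript length in nucleotides (horizontal log axis) for the 78 genes, coloured by subunit. Black bars give the median of all tested genes in each of 6 length classes, from −0.42 up to 750 nucleotides to 0.19 over 3000, and red bars that of the members, which lies below the black bar in each class, both on TMM-scaled counts; on the FPKM scale the medians over all lengths were 0.41 and 0.15.

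Most counts of these genes came from protein-coding transcripts, with a median over the members of 97.9% in sham and 98.1% in MI libraries. The share was under 50% in sham in 2 members called lower, Mrps34 (28.8% in sham, 59.5% in MI) and Mrps26 (40.6% and 50.9%), which were picked out after their values were seen. Counting only protein-coding transcripts left 33 members called lower, 32 of them shared with the 35, and 3 higher. Of tested genes 18.3% were called lower and 22% higher in that fit. In GENCODE M21, 33 members share exonic bases with another gene, 8 on the same strand and 28 on the opposite one, and 7 share more than 25%. These 7 are Mrpl19, Mrpl24, Mrpl43, Mrpl53, Mrps18b, Mrps25 and Mrps34, whose values are uncertain to that extent.

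Other genes of mitochondrial translation were set beside the members on TMM-scaled counts, with the counts on log2(FPKM + 1) given for each list. The background is 22.0% of tested genes called higher and 18.3% lower on the former, and 50.1% and 5.97% on the latter. Of 5 further proteins of the mitochondrial ribosome that carry other names, 3 were called lower and 0 higher with edgeR: Gadd45gip1 (−1.26 ± 0.21 (SE), adjusted p = 0.00408), Chchd1 (−0.71 ± 0.15, adjusted p = 0.011) and Aurkaip1 (−0.60 ± 0.12, adjusted p = 0.00907). On log2(FPKM + 1) 1 was called lower, Gadd45gip1 (−0.65), and 1 higher. Dap3, which binds GTP in the small subunit, had −0.24 ± 0.13 (adjusted p = 0.182). Exons of some genes in these lists overlap those of other genes, which leaves their values uncertain to that extent. Of 24 factors that assemble the ribosome 23 were tested, and 5 were called lower and 0 higher, with a median of −0.25, while on log2(FPKM + 1) 0 were called lower and 10 higher, with a median of 0.25. Those called lower on counts included the GTPase Mtg2 (−0.77), the small-subunit factor Rbfa (−0.73), Mterf3 (−0.59) and Mettl17 (−0.54).

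The 2 ribosomal RNAs of the mitochondrial ribosome were both called lower. The small-subunit RNA mt-Rnr1 had 5439 to 7016 CPM in sham and 551.5 to 1166 CPM in MI libraries (log2 fold change −2.89 ± 0.22 (SE); edgeR adjusted p = 0.000532), and the large-subunit RNA mt-Rnr2 had 10870 to 14000 CPM and 3517 to 6916 CPM (−1.33 ± 0.29; adjusted p = 0.012). Poly(A) selection recovers these RNAs only in part. All 13 proteins of mitochondrial DNA were called lower, from −2.17 for mt-Nd3 to −1.05 for mt-Nd4l, with a median of −1.61. These 13 and both ribosomal RNAs were called lower on log2(FPKM + 1) as well, with medians of −1.07 and −1.58. The RNAs that the ribosome consists of and translates thus lay further below sham than the median of its proteins, and whether they differ was not tested.

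Factors that work on the ribosome were called in both directions on TMM-scaled counts. Of 18 translation factors 3 were called higher and 2 lower with edgeR, and 11 and 0 on log2(FPKM + 1). Taco1, the translational activator of Co1, rose by 1.85 ± 0.20 (SE) on the log2 scale (adjusted p = 0.00112), the elongation factor Gfm1 by 0.95 ± 0.17 (adjusted p = 0.00615) and the mRNA-stabilizing Lrpprc by 0.74 ± 0.18 (adjusted p = 0.0174). Slirp, the partner of Lrpprc, was called lower (−0.88 ± 0.23, adjusted p = 0.0219), and 93.9% of its exonic bases are shared with Snw1 on the opposite strand. Of 19 mitochondrial aminoacyl-tRNA synthetases, which charge the tRNAs, 4 were called higher, among them Iars2 (0.60), and 2 lower, Lars2 (−1.43) and Hars2 (−0.38). On log2(FPKM + 1) 12 were called higher and 1 lower, Lars2 at −0.78. Of 12 genes for maintenance and transcription of mitochondrial DNA 4 were called lower, among them the polymerase subunit Polg2 (−0.94) and the single-strand binding protein Ssbp1 (−0.46), and 1 higher, the transcription factor Tfb2m (0.54); on log2(FPKM + 1) 0 were called lower and 6 higher.

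Regulators of mitochondrial biogenesis were called higher in 6 of 11 and lower in 1 with edgeR, and in 7 and 0 on log2(FPKM + 1). Myc rose by 2.12 ± 0.30 (SE; edgeR adjusted p = 0.00238), the nuclear receptor Esrrg by 1.69 ± 0.23 (adjusted p = 0.00209), and the coactivators Ppargc1a by 1.42 ± 0.23 (adjusted p = 0.00396) and Pprc1 by 0.86 ± 0.11 (adjusted p = 0.00191) on the log2 scale. Nrf1, whose motif was sought above, had −0.11 ± 0.12 (edgeR adjusted p = 0.493) and Gabpa 0.05 ± 0.09 (adjusted p = 0.692). Gabpb1 was the regulator called lower on counts, at −0.51 ± 0.14 (edgeR adjusted p = 0.0273). On log2(FPKM + 1) Gabpa was called higher (0.552, limma, adjusted p = 0.00402). There Nrf1 (0.255, limma, adjusted p = 0.0895) and Gabpb1 (0.034, adjusted p = 0.841) were not called.

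The proteins of the cytosolic ribosome, whose many processed copies in the genome can share their reads, were counted in the same way. Of 85 genes 27 were called lower (31.8%) and 2 higher with edgeR, against 44.9% lower among the members, and the median log2 fold change was −0.37 in both lists on TMM-scaled counts. On log2(FPKM + 1) 13 were called higher and 2 lower, with a median of 0.20, against 0.15 for the members. The like medians over both genotypes did not hold within each. In fl/fl the cytosolic genes had a median of −0.04 on TMM-scaled counts, beside −0.41 for the members. There 2 were called lower and 2 higher, where 8.45% and 10.1% of tested genes were. In CKO their median was −0.69, beside −0.30 for the members, with 36 called lower and 0 higher, where 11.9% and 12.8% of tested genes were. In CKO-Sham against fl/fl-Sham 79 of 85 were positive (median 0.37), and in CKO-MI against fl/fl-MI 82 were negative (median −0.28), with 0 called in either. These values rest on the labels, which Esr1 went against in fl/fl-MI 2 and both CKO-Sham libraries. The interaction estimate was negative in 80 of 85 cytosolic genes (median −0.64) and positive in 55 of 78 members (median 0.14), with 0 called in either list. The lists were not tested against each other.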

How the data were processed

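Gene and transcript tables of 8 mouse myocardium libraries were used, and the deposited labels set the groups, by genotype (fl/fl or CKO) and operation (Sham or MI), with 2 libraries each. The authors made poly(A) libraries, sequenced them as paired-end reads of 150 bases and, per the labels, trimmed with cutadapt 1.9 and used FastQC. Aligner, counter and annotation release are not given in the sources used here. The authors deposited whole-number counts per gene, without normalization, and FPKM values, which the authors scaled to length and library size. More genes stood at counts of 4 and 8 than at the counts next to them, which was read as about 4 counts per read pair. This factor is an inference, and under it the libraries would hold 18455437 to 22029393 pairs. The deposited tables give GRCm38 coordinates, and 69 of 78 members have the same start and end in GENCODE M21.

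Counts of genes averaging 0.5 FPKM or more were fitted with edgeR 4.0.16 (R 4.3.3), TMM and 1 mean per group over all 8 libraries; quasi-likelihood tests were adjusted by Benjamini-Hochberg over all 14028 tested genes and called under 0.05. Standard errors come from the log2 fold change and its F statistic. The script was tested on simulated counts. Alternatives were DESeq2 1.42.0, limma 3.58.1 on log2(FPKM + 1) and log2(FPKM + 0.1), RLE factors, no filter, an average FPKM of 5 or more, mitochondrially encoded genes removed before TMM, counts divided by 4, the replicate number as a block, only the 4 libraries compared, no libraries with Esr1 against their label, and each library left out in turn. Counting only protein-coding transcripts was an alternative chosen after seeing the data. Python 3.11.15 and pandas 2.3.3 read the tables, and motifs were sought in RefSeq promoters of GRCm38.p6.

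The members, lists and tests were chosen with earlier results of these data known. Genes were named by rule: in the MI comparison the 5 members with the largest rise and the 5 with the largest fall among those called (then by smallest p), the 5 highest and 3 lowest by FPKM, the 3 with the smallest p in each genotype comparison and the interaction, the Mrps18 paralogs, Mrps30, Mrps36, Mrpl58 and Mrpl12, and up to 4 per other list by smallest p. Nrf1, Gabpa and Gabpb1 were added for their motifs, and mt-Nd4l as the end of a range. Count precision here is set by the spread between libraries, not by depth.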

Additional observations from a re-analysis of the deposited data

How the results depend on the processing

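Of the counts of members called, direction against 0 depended most on scaling. With limma on log2(FPKM + 1) and on log2(FPKM + 0.1) alike, MI in both genotypes gave 25 members called higher and 6 lower in place of 2 and 35. MI in fl/fl gave 8 and 3 in place of 0 and 19, and MI in CKO gave 21 and 2 in place of 2 and 19. On log2(FPKM + 1), 50.1% of tested genes were called higher and 5.97% lower over both genotypes. In fl/fl 34.2% and 3.24% of tested genes were, and in CKO 33% and 3.81%. The 6 members called lower over both genotypes were all among the 35. On these FPKM scales (pseudocount 1, then 0.1) the log2 fold change became positive for Mrpl32 (0.26, 0.36), Mrpl35 (0.39, 0.48), Mrpl21 (0.46, 0.52), Mrpl40 (0.48, 0.56), Mrpl1 (0.44, 0.54) and Mrps18b (0.18, 0.20), each called on counts or on FPKM, and for Mrps10 (0.26, 0.40), Mrpl57 (0.12, 0.17) and Mrps18c (0.10, 0.11), called on neither. The members' median stayed below that of all tested genes in the MI comparison under every setting run, by 0.264 to 0.614 log2 units.

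Over both genotypes, 1 member was called higher with mitochondrially encoded genes removed before TMM, where 20.5% of tested genes were. With a mean FPKM of at least 5 (54 members tested) it was 1, beside 27.4%, and with the replicate block 1, beside 19.6%. The count called lower was 39 with DESeq2, beside 21.7% of tested genes. Without the libraries whose Esr1 went against their labels the members' median was −0.473 and that of all tested genes 0.013. That fit leaves no CKO-Sham library, so MI libraries under both labels were set against fl/fl-Sham alone. In fl/fl the count called lower was 0 with only the 4 libraries compared, where 0.934% of tested genes were called lower. In CKO without a filter 8 members were called lower and 1 higher, where 3.84% and 5.68% of tested genes were. Leaving out 1 library at a time gave 0 to 3 called higher and 20 to 43 lower over both genotypes, with 20 without fl/fl-Sham 2 and 23 without CKO-Sham 1; 0 to 1 higher and 0 to 31 lower in fl/fl; 0 to 3 higher and 0 to 30 lower in CKO; 0 to 2 for genotype after MI and 0 to 1 for the interaction (both without fl/fl-MI 1); and 0 to 0 for genotype after sham. Without fl/fl-MI 1, the fl/fl-MI group rests on fl/fl-MI 2 alone, the library with high Esr1 and atrial markers. Many more of all tested genes were then called for genotype after MI and for the interaction than with all 8 libraries. Calls of members in that fit were thus not particular to them. The members' median there was −0.024 for genotype after MI and 0.039 for the interaction, beside 0.026 and 0.033 for all tested genes. In fl/fl the members' median was −0.388 without fl/fl-Sham 2, −0.442 without fl/fl-Sham 1, −0.366 without fl/fl-MI 1 and −0.535 without fl/fl-MI 2. In CKO the members' median was −0.197 without CKO-Sham 1, −0.372 without CKO-Sham 2, −0.392 without CKO-MI 1 and −0.235 without CKO-MI 2.

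Samples with the same replicate number did not deviate together across genes (correlations −0.124 to 0.065). With 1 difference between replicates per group a weak shared effect could not be seen, so this check cannot settle whether the number pairs them. With the replicate block 33 members were called lower over both genotypes, 12 in fl/fl and 13 in CKO. The shares of tested genes called lower were 16.7%, 5.75% and 9.2%. In that fit 1 member was called higher over both genotypes and 1 in CKO, where 19.6% and 9.89% of tested genes were. For single named members, 429 alternatives kept direction and side of the threshold, 35 lost the call, 23 gained it, 12 turned in direction with a call on either side, and 25, in 10 members, turned in direction without one. With 2 libraries per group, small changes by genotype were within the spread between libraries, and the causes of these shifts were not tested.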
